A study of Homo sapiens with 18 samples.

Results

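The coat, tether and SNARE genes of the secretory pathway were followed through the polysome gradients of HEK293 cells, an established human embryonic kidney line (ATCC CRL-1573). They are 49 genes chosen by name: 8 COPI coat subunits, 11 COPII coat genes, 10 TRAPP tether subunits, 11 syntaxins and other Q-SNAREs, 7 R-SNAREs and the 2 genes of SNARE disassembly. All 49 were among the 13661 genes of the table. A minimum of 10 reads, averaged over the libraries, kept 48 of them and 12720 genes in all, and removed TRAPPC5. The study separated cytoplasmic lysates on sucrose gradients, pooled each gradient into heavy polysomes, light polysomes and monosomes, and sequenced the RNA of every pool. The cells analysed here had received DMSO, the vehicle, for 12 h. They gave 3 heavy polysome, 3 light polysome and 3 monosome libraries. The 9 libraries of cells treated with 100 µM minocycline, a tetracycline antibiotic, were not analysed here. All comparisons below are thus between mRNAs or fractions of vehicle-treated cells of 1 line.

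Membrane traffic between the endoplasmic reticulum (ER) and the Golgi runs in coated vesicles. The small GTPase SAR1 recruits the COPII coat, which buds vesicles from the ER: SEC23 and SEC24 form the inner layer that gathers cargo, SEC13 and SEC31 form the outer cage, and SEC16 marks the sites of budding. The COPI coat returns material from the Golgi to the ER and assembles as a complex of α, β, β′, γ, δ, ε and ζ subunits. TRAPP complexes tether arriving vesicles and activate Rab GTPases. Fusion is driven by SNAREs, in which Q-SNAREs (syntaxins and their partners) zip together with an R-SNARE (VAMPs, YKT6 and SEC22B). The ATPase NSF and its adaptor α-SNAP then take the spent bundle apart. Many SNAREs are short proteins held in the membrane by a C-terminal segment, whereas most coat subunits are long and cytosolic. In a polysome gradient an mRNA sediments further the more ribosomes it carries, and a short reading frame has room for fewer of them.

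The libraries held 13447139 to 24441159 reads assigned to genes. The 3 fractions that share a batch label are called a gradient below, numbered 1 to 3. Light polysome library 2 stood apart: over 12720 genes its log2 values correlated at r = 0.93 to 0.95 with the heavy polysome libraries and at 0.89 to 0.90 with the other light polysome libraries, which correlated with each other at 0.99. Counts of members are therefore also given without gradient 2 or without that library. Of the markers checked for the line, 7 of 7 (UCHL1, NEFM, NEFL, VIM, KRT8, KRT18 and PAX2) were in the table, at 18 to 18288 reads per library. Of the fibroblast and epithelial markers checked, COL1A1, EPCAM and CDH1 were listed, at 1 to 188 reads per library. Whether counting used the strand of a read is not given in the sources used here, so reads of a gene and of an antisense partner cannot be told apart. Overlaps and pseudogene copies are named below for some members only. In GENCODE 29 STX18 also lies antisense to NSG1 and STX18-AS1, SEC23A to SEC23A-AS1, SEC31A to THAP9 and NAPA to NAPA-AS1. VAMP2 overlaps AC129492.3 on its own strand, and SEC24A has the pseudogene copy SEC24AP1.

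Mean ribosome load (MRL) is the authors' score for an mRNA: its shares in the fractions weighted by 1 for monosomes, 2.5 for light and 6 for heavy polysomes. Each fraction was scaled to the same typical gene, so MRL ranks genes against each other and does not count ribosomes. Normalized counts and shares compared between fractions below carry the same scaling. They are relative to the typical gene and do not give the amount of an mRNA in a fraction. The 48 members had a median MRL of 3.31 ± 0.14 (SD over 3 gradients), against 3.17 ± 0.01 over all 12720 genes. They spanned 1.84 to 4.45. Set against the median gene of each gradient, 14 members were higher, which is 29.2% of them, against 22.0% of all genes tested (limma, adjusted p under 0.05). Another 7 were lower, or 14.6%, against 24.7% of all genes. The first share lay above its background and the second below it; neither gap was tested. Without gradient 2 there were 16 higher and 10 lower members, while 29.1% and 28.0% of all genes were called. Without gradient 1 the members were 7 and 6, against 9.89% and 17.0% of all genes, and without gradient 3 they were 9 and 8, against 14.4% and 23.2%. Calls held in each of these 3 omissions for 6 of the 14 higher members (ARCN1, SEC23A, SEC23B, SEC24D, TRAPPC9 and STX18) and for 6 of the 7 lower members (STX16, BET1L, VAMP2, VAMP3, VAMP4 and VAMP8). No share of all genes holding in every omission is given beside these counts, so they describe the members only.

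The families differed in level. The NSF and NAPA pair had the highest median MRL, 4.09 ± 0.21 (SD, n = 3 gradients), followed by the COPI coat at 3.62 ± 0.39 and the COPII coat at 3.57 ± 0.26. Q-SNAREs had 3.25 ± 0.12 and TRAPP subunits 3.11 ± 0.08. R-SNAREs were lowest, at 2.44 ± 0.01. That SD is of the median, which fell on VAMP2, VAMP4 and VAMP3 in gradients 1, 2 and 3. The SDs of these genes were 0.30, 0.16 and 0.15, and single R-SNAREs had mean MRLs from 1.95 to 3.67. The COPI and COPII medians did not differ beyond their spread, whereas the R-SNARE median lay under every other family in each of the 3 gradients. The members higher than the median gene were 2 of 8 in the COPI coat (25.0%), 5 of 11 in the COPII coat (45.5%) and 2 of 9 in TRAPP (22.2%). They were 3 of 11 among Q-SNAREs (27.3%) and 2 of 2 in disassembly. Over all genes the share was 22.0%, so the COPI and TRAPP counts were near the background, and no family was tested. All 7 lower members were SNAREs, 3 of them Q-SNAREs (27.3% of that family) and 4 R-SNAREs (57.1%), against 24.7% of all genes.

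**Figure D1:**
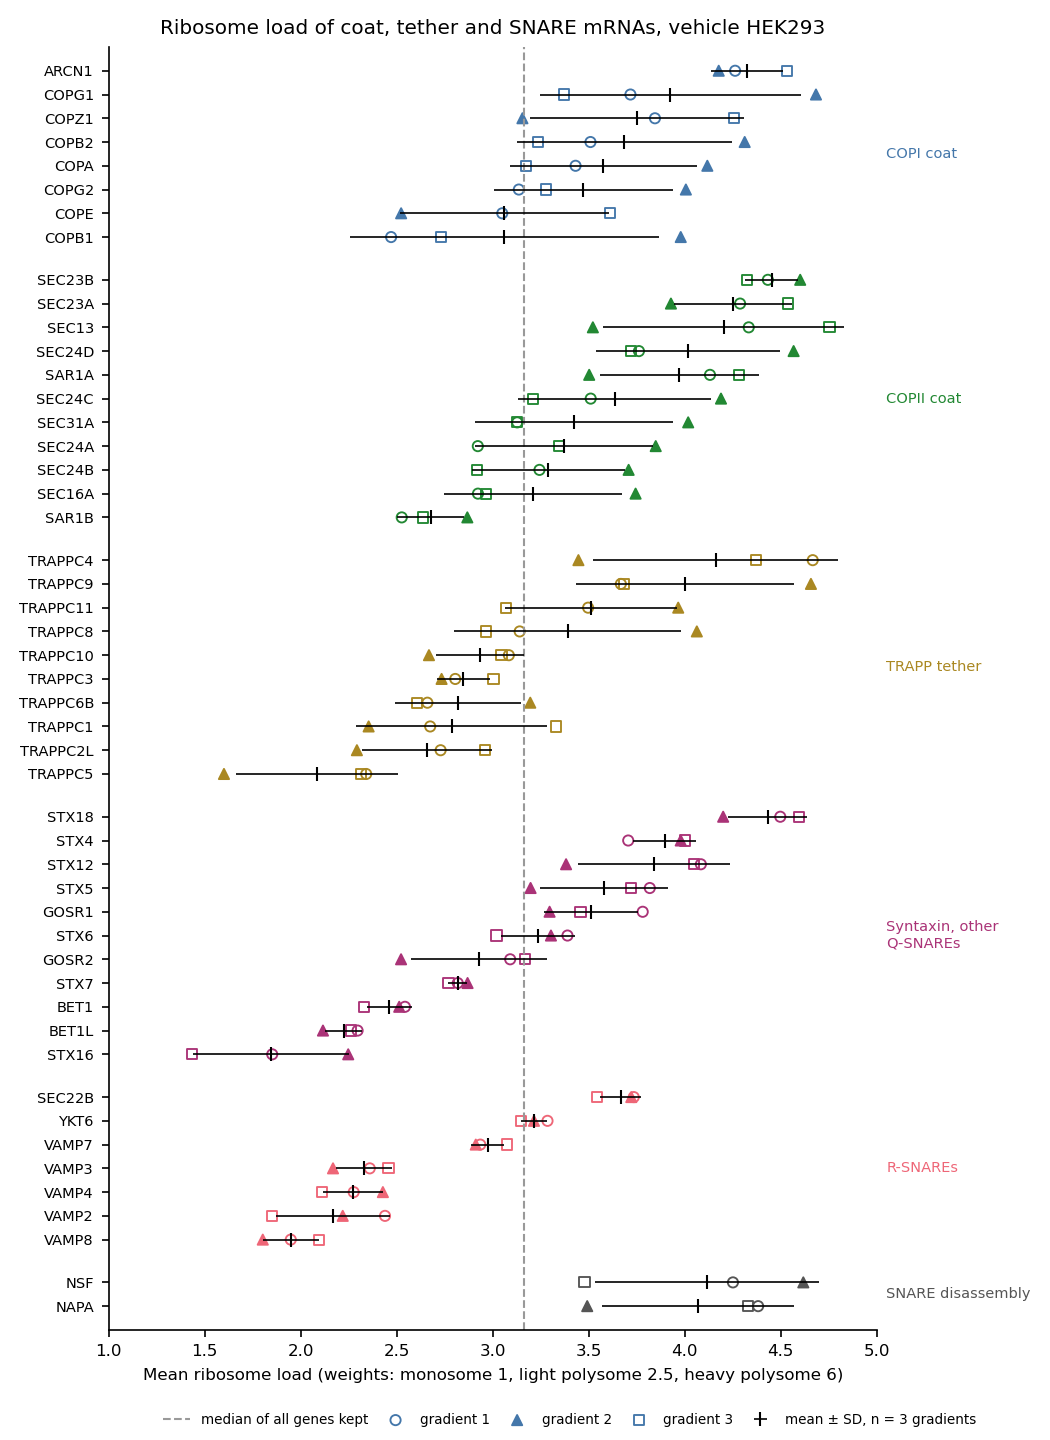
Mean ribosome load (x axis, weights 1, 2.5 and 6) of the 49 members in gradients 1, 2 and 3, grouped by family and sorted by mean; bars give mean ± SD (n = 3) and the dashed line the median of all genes kept, 3.17. VAMP2, VAMP3, VAMP4, VAMP8, BET1, BET1L and STX16 sit left of the line in all 3 gradients, and gradient 2 (filled triangles) is to the right of the other gradients for most long coat genes.

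In the COPI coat the δ subunit ARCN1 carried the highest load. Its MRL was 4.26, 4.18 and 4.53 in gradients 1, 2 and 3, a mean of 4.32 ± 0.19 (SD, n = 3), at percentile 94.4 of all genes kept. All 3 values lay above the median gene, by 0.45 ± 0.08 on the log2 scale (SE, limma adjusted p = 0.00236). ARCN1 (ENSG00000095139, chr11:118572390-118603033, plus strand, GRCh38) had 3067, 5140 and 3192 normalized counts in heavy polysomes, against 1287, 2014 and 919 in monosomes. Heavy and monosome libraries did not overlap, and the log2 difference was 1.47 ± 0.45 (limma adjusted p = 0.0147), with a p of 0.103 at most when 1 gradient was left out. COPZ1, the ζ subunit, had 3815, 3310 and 4847 normalized counts in heavy polysomes, against 1755, 3272 and 1261 in monosomes, without overlap. Its log2 difference of 1.03 ± 0.41 lay at the threshold: the limma adjusted p was 0.04995, which passed, and 0.0501 with the replicate block, which did not.

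The γ subunit COPG1 had MRLs of 3.72, 4.68 and 3.37, highest in gradient 2. Its log2 distance from the median gene was 0.30 ± 0.10 (limma adjusted p = 0.0448), and without gradient 2 it was 0.16 (adjusted p = 0.108). In heavy polysomes COPG1 had 569, 2532 and 600 normalized counts, against 356, 479 and 543 in monosomes. These groups did not overlap, yet the log2 difference of 1.07 ± 0.52 did not pass the test (limma adjusted p = 0.102), while with the replicate block it did (0.0405). The other COPI genes did not pass either test. Their MRLs were 3.57 ± 0.49 for the α subunit COPA, 3.69 ± 0.56 for the β′ subunit COPB2, 3.47 ± 0.47 for the second γ subunit COPG2, 3.06 ± 0.54 for the ε subunit COPE and 3.06 ± 0.81 for the β subunit COPB1. COPB1 varied most of all members: its MRL was 2.47, 3.98 and 2.73, and its heavy polysome share was 22.1%, 53.8% and 25.9%. COPB2 lies antisense to MRPS22 and COPA to NCSTN in GENCODE 29, and COPG2 overlaps TSGA13 on its own strand and MEST on the other.

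Among COPII genes the SEC23 paralogs led. SEC23B and SEC23A encode the GTPase-activating subunit of the inner coat. SEC23B (ENSG00000101310, chr20:18507482-18561415, plus strand) had MRLs of 4.43, 4.60 and 4.32, a mean of 4.45 ± 0.14 and the highest of the 49 genes, at percentile 96.5. SEC23A had 4.29, 3.93 and 4.54, a mean of 4.25 ± 0.31. SEC23B gave 622, 1756 and 637 normalized counts in heavy polysomes, against 179, 194 and 176 in monosomes, a log2 difference of 2.27 ± 0.51 (limma adjusted p = 0.00264). SEC23A gave 1678, 1727 and 1749 in heavy polysomes, against 520, 545 and 389 in monosomes, a log2 difference of 1.84 ± 0.36 (limma adjusted p = 0.00122). Neither gene overlapped between heavy polysomes and monosomes, and both stayed past the threshold whichever gradient was left out.

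SEC13, part of the outer cage, had MRLs of 4.33, 3.52 and 4.75 and a mean of 4.20 ± 0.63. It gave 2790, 2908 and 3348 normalized counts in heavy polysomes, against 1009, 1974 and 720 in monosomes, a log2 difference of 1.41 ± 0.48 (limma adjusted p = 0.0253). SEC13 has a pseudogene copy, SEC13P1, that could take some of its reads. SEC31A, which builds the cage with SEC13, had MRLs of 3.13, 4.02 and 3.13 and did not pass the load test (limma adjusted p = 0.434). SEC16A, the scaffold of ER exit sites, had 3.21 ± 0.46, close to the median gene. Among the cargo-binding SEC24 paralogs, SEC24D was highest at 4.02 ± 0.48 and passed the load test (log2 distance 0.34 ± 0.09, limma adjusted p = 0.0161). Its heavy polysome counts of 159, 1093 and 246 overlapped the 84.1, 208 and 137 of monosomes, and the difference of 1.38 ± 0.64 passed with the replicate block (adjusted p = 0.00685) but not without it (0.0869). SEC24C had an MRL of 3.64 ± 0.50, SEC24A 3.37 ± 0.46 and SEC24B 3.29 ± 0.40, and none of these 3 passed.

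SAR1A and SAR1B, which encode GTPases of equal coding length (597 nt), lay on opposite sides of the median gene. SAR1A (ENSG00000079332, chr10:70147289-70170523, minus strand) had MRLs of 4.13, 3.50 and 4.28. SAR1B (ENSG00000152700, chr5:134601144-134649271, minus strand) had 2.53, 2.87 and 2.64. SAR1A was the higher of the pair in 3 of 3 gradients, by 1.30 ± 0.57 MRL units (SD). In heavy polysomes SAR1A had 3060, 2207 and 3007 normalized counts, against 1011, 1147 and 722 in monosomes, a log2 difference of 1.53 ± 0.36 (limma adjusted p = 0.00335). SAR1B had 943, 967 and 1046 in heavy polysomes, against 2132, 1429 and 2106 in monosomes, a log2 difference of -0.92 ± 0.34 (limma adjusted p = 0.0355). Monosomes thus held 51.8% ± 8.1 of the SAR1B signal and 16.9% ± 2.9 of the SAR1A signal (SD, n = 3). Both differences were past the threshold only when gradients 1 and 3 were in the fit: leaving out 1 gradient gave adjusted p of 4.01e-05 to 0.0897 for SAR1A and 0.00182 to 0.339 for SAR1B. SAR1B overlaps SEC24A on the opposite strand, and SAR1A has 4 annotated pseudogene copies.

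The TRAPP subunits range from short core proteins to long scaffolds. The large subunits TRAPPC8 and TRAPPC11, particular to the TRAPPIII complex, had MRLs of 3.39 ± 0.59 and 3.51 ± 0.45. TRAPPC9, which with TRAPPC10 marks the TRAPPII complex, had 3.67, 4.66 and 3.68, and TRAPPC10 had 3.08, 2.67 and 3.05. TRAPPC9 passed the load test (log2 distance 0.33 ± 0.09, limma adjusted p = 0.0217). Its heavy polysome counts were 71.2, 171 and 64.6, against 51.7, 16.6 and 43.6 in monosomes, the lowest levels of any member kept. That log2 difference of 1.43 ± 0.55 (limma adjusted p = 0.0444) was past the threshold no longer with the replicate block (0.0554) or without gradient 2, where it was 0.50 (adjusted p = 0.228).

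The small core subunits form the part of TRAPP that exchanges nucleotide on Rab GTPases. TRAPPC4 was the only one of them called above the median gene, with MRLs of 4.67, 3.45 and 4.37 (log2 distance 0.38 ± 0.10, limma adjusted p = 0.0151). It had 3208, 1153 and 1790 normalized counts in heavy polysomes, against 783, 758 and 604 in monosomes, a log2 difference of 1.40 ± 0.42 (limma adjusted p = 0.0139). The groups did not overlap, and the adjusted p reached 0.188 when a gradient was left out. TRAPPC4 lies antisense to RPS25, a ribosomal protein gene, and to SLC37A4. The other small subunits were lower: TRAPPC3 had 2.85 ± 0.14, TRAPPC6B 2.82 ± 0.33, TRAPPC1 2.79 ± 0.50 and TRAPPC2L 2.66 ± 0.34, none past the load test. TRAPPC5 was too low to test, with a mean of 9.33 reads and an MRL of 2.09 ± 0.42; it had 6.55, 4.07 and 6.03 normalized counts in heavy polysomes, against 19.4, 30.8 and 17.8 in monosomes.

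The Q-SNAREs held both extremes. STX18, the syntaxin of the ER that receives Golgi-derived vesicles, had MRLs of 4.50, 4.20 and 4.59, a mean of 4.43 ± 0.21, at percentile 96.1. STX18 (ENSG00000168818, chr4:4415742-4542346, minus strand) gave 837, 1194 and 799 normalized counts in heavy polysomes, against 267, 365 and 221 in monosomes, a log2 difference of 1.73 ± 0.45 (limma adjusted p = 0.00629). The groups did not overlap, and the difference stayed past the threshold whichever gradient was left out. STX16, a syntaxin of the trans-Golgi network, was the lowest of the 48 members, with MRLs of 1.85, 2.25 and 1.43 and a mean of 1.84 ± 0.41, at percentile 5.0. STX16 (ENSG00000124222, chr20:58651253-58679526, plus strand) gave 674, 841 and 631 normalized counts in heavy polysomes, against 4836, 2987 and 11766 in monosomes. The heavy counts were all lower, by 2.96 ± 0.44 on the log2 scale (limma adjusted p = 0.000205). STX16 was the exception to size among the lower members, with a coding length of 978 nt against 303 to 426 nt for the other 6. It shares its strand and locus with the readthrough gene STX16-NPEPL1, so reads could be split between them.

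STX4, the syntaxin of the plasma membrane, had MRLs of 3.71, 3.98 and 4.0 and 869, 1191 and 1041 normalized counts in heavy polysomes, against 369, 457 and 302 in monosomes. Its log2 difference was 1.47 ± 0.31 (limma adjusted p = 0.00167), and its heavy and monosome libraries did not overlap. STX12, a syntaxin of endosomes, had MRLs of 4.08, 3.38 and 4.05 and passed the load test (limma adjusted p = 0.0376), though not the comparison of heavy polysomes with monosomes (0.0874). STX7, another endosomal syntaxin, had 2.82, 2.87 and 2.77, and STX12 was the higher of the pair in 3 of 3 gradients, by 1.02 ± 0.44. STX5, the syntaxin of ER-to-Golgi fusion, had 3.58 ± 0.33, and STX6, which acts in the trans-Golgi network, had 3.24 ± 0.19. Of the Golgi Q-SNAREs, GOSR1 had 3.78, 3.30 and 3.46 and GOSR2 3.09, 2.52 and 3.17. GOSR1 was the higher in 3 of 3 gradients, by 0.58 ± 0.26, and neither passed the load test.

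BET1 and BET1L are short Q-SNAREs of ER-to-Golgi and intra-Golgi transport. BET1 had MRLs of 2.54, 2.51 and 2.33, and BET1L had 2.30, 2.12 and 2.26. Both were below the median gene, BET1 by a log2 distance of -0.36 ± 0.09 (limma adjusted p = 0.0129) and BET1L by -0.51 ± 0.09 (0.00324). In heavy polysomes BET1 had 374, 489 and 429 normalized counts, against 791, 1114 and 1523 in monosomes and 1661, 1431 and 2599 in light polysomes. BET1L had 155, 203 and 226 in heavy polysomes, against 584, 832 and 870 in monosomes and 894, 367 and 1055 in light polysomes. Heavy polysomes therefore had the lowest normalized counts of the 3 fractions for both genes in every gradient. The log2 difference of heavy polysomes from monosomes was -1.36 ± 0.36 for BET1 (limma adjusted p = 0.00636) and -1.96 ± 0.39 for BET1L (0.00132). A pseudogene copy of BET1, BET1P1, is annotated.

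Light polysomes were the leading fraction of 5 of the 7 R-SNAREs by mean share. That share in light polysomes was 55.0% ± 7.0 for VAMP7, 54.1% ± 2.6 for YKT6, 52.3% ± 7.2 for VAMP4, 49.6% ± 20 for VAMP3 and 49.1% ± 12 for VAMP2 (SD, n = 3), against a median of 30.5% ± 0.38 over all genes. VAMP8 was split between monosomes at 55.4% ± 11 and light polysomes at 36.7% ± 12. SEC22B, the R-SNARE of ER-to-Golgi vesicles, differed from the rest: heavy polysomes held 46.2% ± 2.9 of its signal, and its MRL was 3.73, 3.72 and 3.54. It did not pass the load test (limma adjusted p = 0.0621), and a pseudogene copy, SEC22B4P, is annotated.

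VAMP8, an R-SNARE of endosomes and regulated secretion, had the lowest MRL of the family, 1.95, 1.80 and 2.10. VAMP8 (ENSG00000118640, chr2:85561562-85582031, plus strand) had 121, 79.5 and 160 normalized counts in heavy polysomes, against 988, 583 and 890 in monosomes. That is a log2 difference of -2.78 ± 0.50 (limma adjusted p = 0.000671), and the groups did not overlap. VAMP2, the R-SNARE of synaptic and other exocytic vesicles, had MRLs of 2.44, 2.22 and 1.85, with 763, 501 and 605 normalized counts in heavy polysomes, against 2085, 2064 and 6163 in monosomes. VAMP3, its paralog on recycling endosomes, had MRLs of 2.36, 2.17 and 2.46, with 329, 322 and 473 in heavy polysomes, against 1123, 1208 and 1227 in monosomes. VAMP4, which acts at the trans-Golgi network, had MRLs of 2.28, 2.43 and 2.11, with 118, 254 and 190 in heavy polysomes, against 509, 675 and 1151 in monosomes. All 3 were lower in heavy polysomes without overlap. The log2 differences were -2.28 ± 0.46 for VAMP2 (limma adjusted p = 0.00138), -1.68 ± 0.49 for VAMP3 (0.0118) and -2.03 ± 0.39 for VAMP4 (0.00109). VAMP3 and VAMP2 did not differ beyond their spread in MRL (0.16 ± 0.39, VAMP3 higher in 1 of 3 gradients).

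VAMP7 and YKT6 carry a longer N-terminal domain than the other R-SNAREs listed here apart from SEC22B. VAMP7, an R-SNARE of late endosomes and lysosomes, had MRLs of 2.94, 2.91 and 3.07, and YKT6, which is anchored by lipid, had 3.29, 3.21 and 3.15. VAMP7 was higher than VAMP4 in 3 of 3 gradients, by 0.70 ± 0.24. Neither gene passed the load test or the comparison of heavy polysomes with monosomes, and both rose in light polysomes over monosomes. VAMP7 had 2984, 2091 and 3214 normalized counts in light polysomes, against 910, 1263 and 1064 in monosomes, a log2 difference of 1.34 ± 0.33 (limma adjusted p = 0.0131). YKT6 had 1952, 1706 and 1963 in light polysomes, against 496, 642 and 719 in monosomes, a log2 difference of 1.61 ± 0.30 (limma adjusted p = 0.00296).

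The genes of SNARE disassembly were both loaded above the median gene. The log2 distance was 0.37 ± 0.10 for NSF (limma adjusted p = 0.0146) and 0.35 ± 0.09 for NAPA (0.0152). With 1 gradient left out the limma adjusted p reached 0.0783 for NSF and 0.144 for NAPA. NSF, the ATPase, had MRLs of 4.25, 4.62 and 3.48, a mean of 4.12 ± 0.58. NAPA, which encodes α-SNAP, had 4.38, 3.49 and 4.33, a mean of 4.07 ± 0.50. Their loads moved apart in gradient 2, where NSF was highest and NAPA lowest. NSF had 577, 974 and 341 normalized counts in heavy polysomes, against 188, 147 and 244 in monosomes, a log2 difference of 1.61 ± 0.39 (limma adjusted p = 0.00429). NAPA had 2292, 1449 and 1869 in heavy polysomes, against 675, 815 and 617 in monosomes, a log2 difference of 1.40 ± 0.39 (limma adjusted p = 0.00945). Neither overlapped between the fractions. For this difference the limma adjusted p with 1 gradient left out was at most 0.045 for NSF and 0.151 for NAPA. The pseudogene NSFP1 is a copy of part of NSF that could share its reads.

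**Figure D2:**
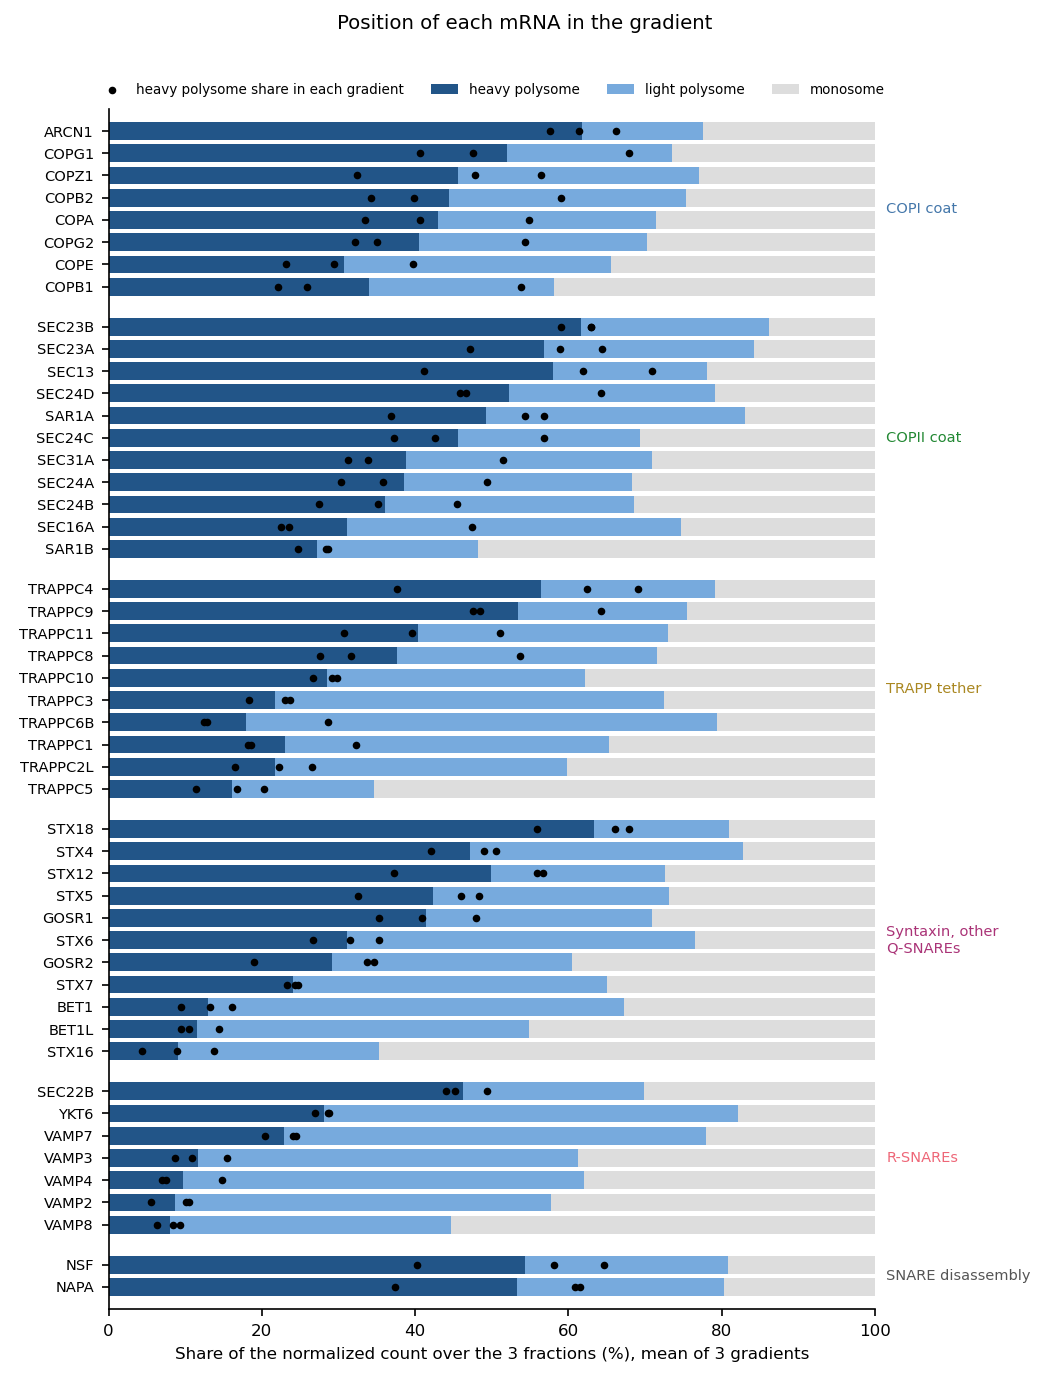
Share of each member's normalized count (x axis, %, mean of 3 gradients) in heavy polysomes, light polysomes and monosomes, by family; black points mark the heavy polysome share in each gradient. The heavy polysome share is 63.3% for STX18 and 61.7% for ARCN1 and SEC23B, and 7.99% for VAMP8 and 8.69% for VAMP2.

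Comparing fractions library by library, 12 of the 48 members were higher in heavy polysomes than in monosomes and 8 were lower, against a background of 24.7% of all genes higher and 24.4% lower (limma, adjusted p under 0.05). The members' shares were 25.0% and 16.7%, so the first was at the background. Those higher were COPZ1, ARCN1, SEC13, SEC23A, SEC23B, SAR1A, TRAPPC4, TRAPPC9, STX4, STX18, NAPA and NSF. Those lower were SAR1B, STX16, BET1, BET1L, VAMP2, VAMP3, VAMP4 and VAMP8. The share of all genes called moved with each omission too. Without light polysome library 2, whose spread enters the fit, 15 members were higher and 9 lower, against 29.3% and 27.3% of all genes. Without gradient 1 there were 6 and 5, against 9.99% and 14.7% of all genes. Without gradient 2 there were 16 and 10, against 31.4% and 30.0%, and without gradient 3 there were 5 and 6, against 13.8% and 17.3%. Calls held in each of these 3 omissions for SEC23A, SEC23B, STX18 and NSF in the higher direction and for STX16, BET1L, VAMP2, VAMP4 and VAMP8 in the lower. Here too no share of all genes holding in every omission is given for comparison.

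Light polysomes set against monosomes separated fewer genes. Members higher in light polysomes were 5 of 48 (TRAPPC6B, STX4, STX6, VAMP7 and YKT6), or 10.4%, against 8.47% of all genes. Members lower were 2 (SAR1B and STX16), or 4.17%, against 10.2% of all genes. TRAPPC6B, a small TRAPP subunit, had 1130, 792 and 1552 normalized counts in light polysomes, against 319, 315 and 528 in monosomes, a log2 difference of 1.57 ± 0.37 (limma adjusted p = 0.0108). STX6 had 645, 959 and 825 in light polysomes, against 354, 393 and 494 in monosomes, a difference of 0.96 ± 0.31 (limma adjusted p = 0.0415). Without light polysome library 2 STX6 was no longer past the threshold (0.0565), and 7 members were higher and 2 lower, against 10.6% and 11.1% of all genes. None of the 7 calls held in each omission of a gradient. Without gradient 1 there were 0 higher and 0 lower by limma (3 and 1 at an unadjusted p under 0.05), against 1.17% and 3.25% of all genes. Without gradient 2 there were 12 and 6, against 17.3% and 18.1%, and without gradient 3 there were 1 and 0 (4 and 0 unadjusted), against 1.94% and 5.42%.

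Heavy polysomes were also set against light polysomes. Members higher in heavy polysomes were 6 of 48 (ARCN1, SEC13, SEC23A, TRAPPC4, STX12 and STX18), or 12.5%, against 14.7% of all genes. Members lower were 11, or 22.9%, against 17.5% of all genes: TRAPPC3, TRAPPC6B, STX16, BET1, BET1L, VAMP2, VAMP3, VAMP4, VAMP7, VAMP8 and YKT6. The R-SNAREs made up 6 of these 11, and SEC22B was the R-SNARE outside them. The lowest difference was that of VAMP2, with 763, 501 and 605 normalized counts in heavy polysomes, against 4700, 2216 and 4242 in light polysomes, a log2 difference of -2.52 ± 0.46 (limma adjusted p = 0.00682). ARCN1 had 3067, 5140 and 3192 in heavy polysomes, against 642, 1775 and 708 in light polysomes, a log2 difference of 1.99 ± 0.45 (limma adjusted p = 0.00795). With the replicate block COPG1 (1.24, adjusted p = 0.0315) and SEC23B (1.35, adjusted p = 0.0190) were also called. Without light polysome library 2 there were 15 higher and 14 lower members, against 24.7% and 25.8% of all genes. Without gradient 2 there were 18 and 15, against 29.9% and 30.2% of all genes. Without gradient 1, and again without gradient 3, limma called 0 members in each direction, and of all 12720 genes at most 1 was called. At an unadjusted p under 0.05 there were 2 higher and 8 lower members without gradient 1, and 5 and 10 without gradient 3.

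**Figure D3:**
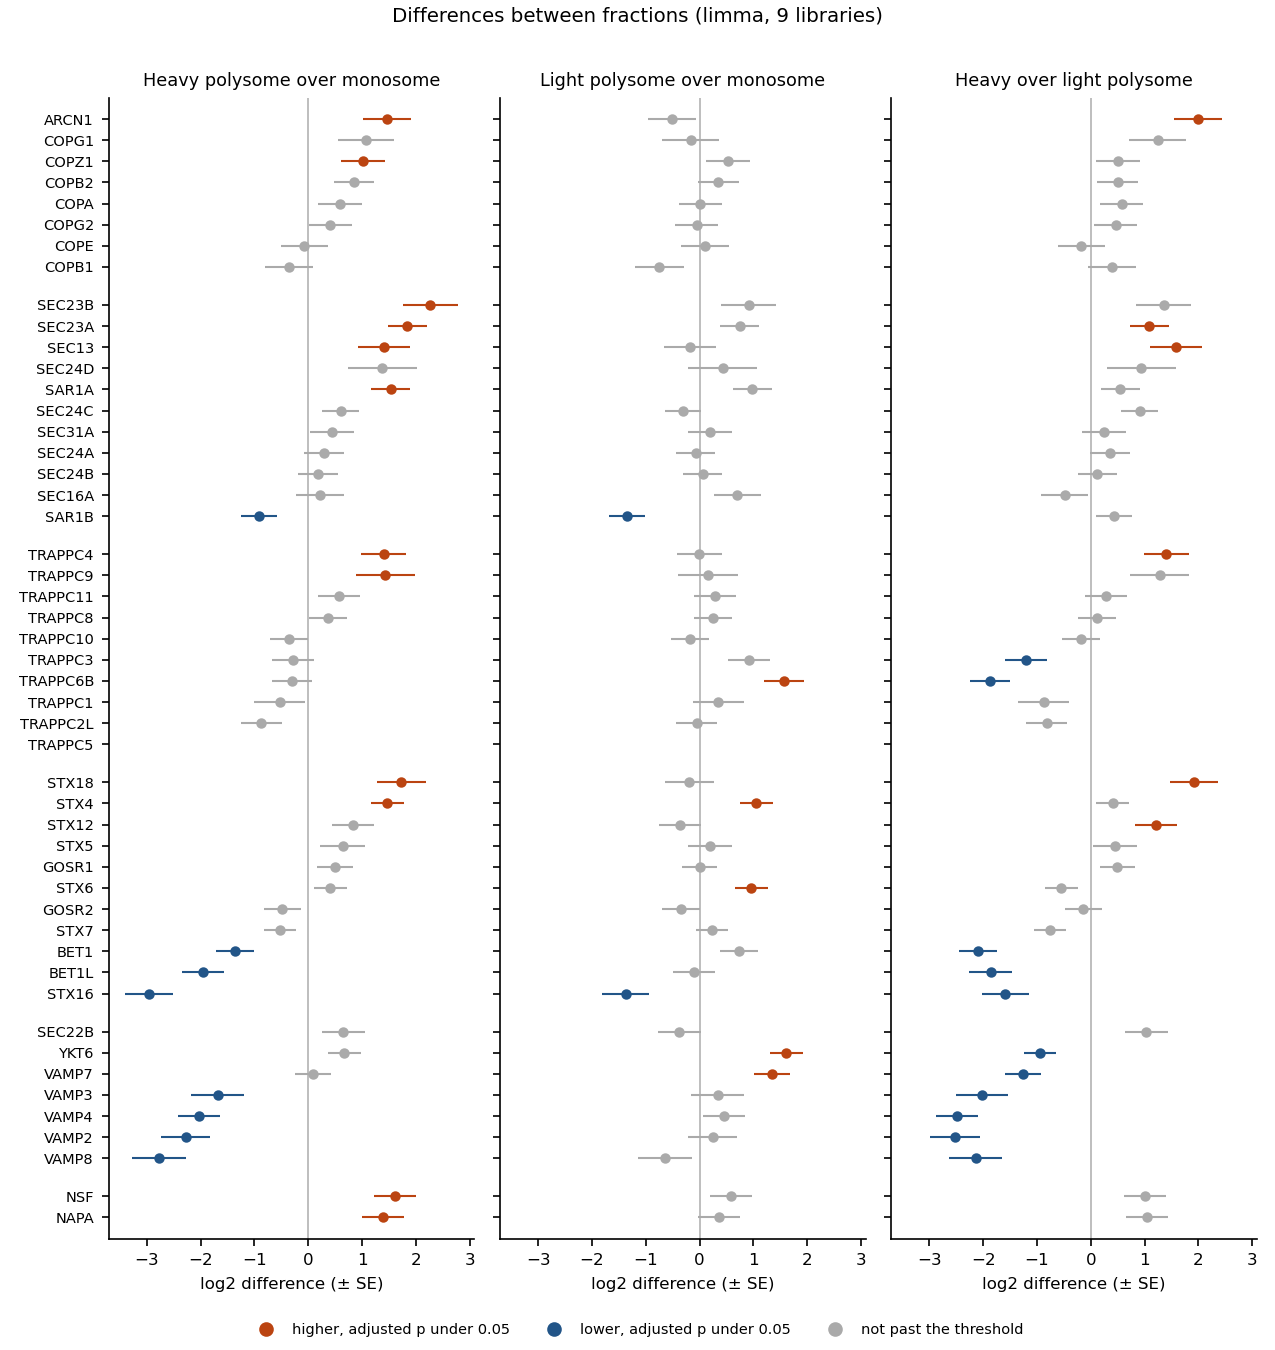
Log2 difference ± SE (x axis) of each member between heavy polysomes and monosomes, light polysomes and monosomes, and heavy and light polysomes, from limma over 9 libraries; colour marks direction where the adjusted p was under 0.05. VAMP2, VAMP3, VAMP4, VAMP8, BET1 and BET1L are lower in heavy polysomes than in either other fraction, while their difference of light polysomes from monosomes did not pass the test; TRAPPC5 has no point because it was not tested.

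The load calls were set against other summaries of the fractions, those below the median gene first. With weights of 1, 2 and 3 in place of 1, 2.5 and 6, STX16, BET1L, VAMP2, VAMP3, VAMP4 and VAMP8 were still below it, SAR1B joined them (limma adjusted p = 0.0389) and BET1 was at -0.16 ± 0.06 (0.0661). The share in light plus heavy polysomes, which does not separate those 2 fractions, then took the place of MRL. STX16 was the only member still below the median gene (log2 distance -1.08 ± 0.34, limma adjusted p = 0.0338). Over all genes 11.6% were below it on that measure, 21.7% with weights of 1, 2 and 3 and 24.7% with the authors' weights. VAMP8 was at -0.66 ± 0.23 (0.0503), BET1L at -0.36 ± 0.18 (0.147), VAMP2 at -0.29 ± 0.17 (0.216), VAMP3 at -0.21 ± 0.17 (0.364), VAMP4 at -0.16 ± 0.13 (0.365) and BET1 at -0.04 ± 0.11 (0.809). YKT6 (0.25 ± 0.05, adjusted p = 0.00443) and TRAPPC6B (0.20 ± 0.06, adjusted p = 0.0263) were above it on that measure. Light polysomes held 54.1% of the YKT6 signal on average. Of the members called above the median gene by load, COPG1, ARCN1, SEC13, SEC24D, TRAPPC9 and STX12 no longer passed on that measure. The limma adjusted p was 0.053 for SEC24D, 0.0806 for SEC13, 0.0829 for ARCN1, 0.453 for TRAPPC9, 0.539 for STX12 and 0.582 for COPG1. Including YKT6 and TRAPPC6B, 10 members were above it, against 2548 of 12720 genes. With weights of 1, 2 and 3, COPG1 and STX12 no longer passed, and 12 members were above it, against 2712 of 12720 genes.

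Load and coding length went together among the members. The 8 members of at most 450 nt (VAMP8, VAMP2, BET1L, VAMP4, VAMP3, BET1, TRAPPC2L and TRAPPC1) had a median MRL of 2.30, against 2.22 for the 840 genes of that length. The 16 members above 450 and up to 900 nt had 3.37, against 2.97 for 2488 genes. The 6 members above 900 and up to 1800 nt had 3.89, against 3.29 for 4894 genes, and included STX16, STX18 and ARCN1. The 7 above 1800 and up to 3000 nt had 3.92, against 3.33, and the 11 over 3000 nt had 3.42, against 3.39. The load of the short SNAREs was thus near that of other mRNAs of their length, and no test was made of the members against genes of equal length. Across the 48 members MRL correlated with log2 coding length at Pearson r = 0.49 and Spearman rho = 0.47, against 0.28 and 0.25 across 12715 genes. These are descriptions across genes, which share libraries and are not independent. Correlations of MRL with leader length (r = 0.04) and with the length of the 3′ UTR (r = -0.22) were weaker.

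The relation to length was mostly that of gradient 2. Across the members r with log2 coding length was 0.30 in gradient 1, 0.76 in gradient 2 and 0.22 in gradient 3, against 0.18, 0.48 and 0.12 across all genes. Among the 18 members over 1800 nt, 16 had a higher MRL in gradient 2 than the mean of gradients 1 and 3, all but SEC23A and TRAPPC10. Over all genes, 1705 of 2714 above 1800 and up to 3000 nt and 1422 of 1779 longer ones were higher. The median excess was 0.80 for the 7 members above 1800 and up to 3000 nt and 0.81 for the 11 longer ones, against 0.20 and 0.52 for all genes of those lengths. Among the 30 shorter members 20 were lower in gradient 2: 5 of 8, 10 of 16 and 5 of 6 in the length classes up to 450, 900 and 1800 nt. Over all genes of these classes 618 of 840, 2048 of 2488 and 3224 of 4894 were lower, so most short genes shared that direction. The COPI median of 3.47, 4.06 and 3.32 and the COPII median of 3.51, 3.85 and 3.34 in gradients 1, 2 and 3 show the same pattern, and without gradient 2 they were 3.40 and 3.43. Light polysome library 2 and heavy polysome library 2 both belong to that gradient, and their part in the pattern was not tested.

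**Figure D4:**
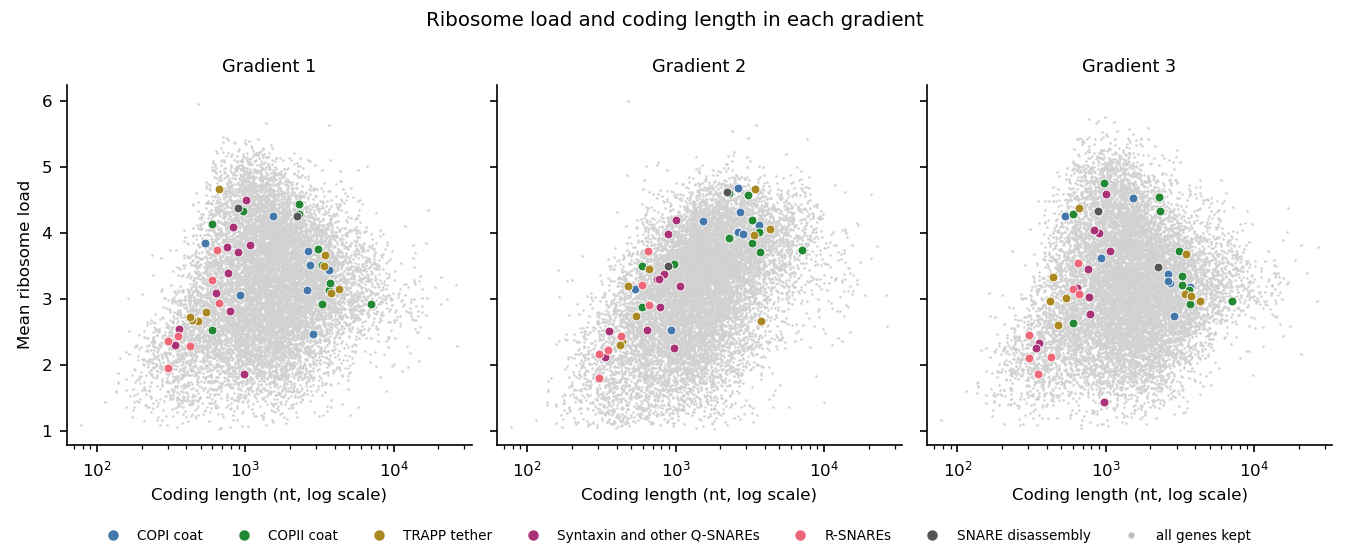
Mean ribosome load (y axis) against coding length (x axis, nt, log scale) in gradients 1, 2 and 3 for the 48 members kept (coloured by family) and all genes kept (grey). Of the 18 members over 1800 nt, 16 lie higher in gradient 2 than the mean of gradients 1 and 3, all but SEC23A and TRAPPC10. So do 1705 of 2714 genes above 1800 and up to 3000 nt and 1422 of 1779 longer ones. Pearson r over members is 0.30, 0.76 and 0.22, and the short SNAREs lie at the lower left in all 3.

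The bases around the annotated start codon, a known influence on how often scanning ribosomes begin, were compared at both ends of the load range. Shown are 9 bases before and 1 base after the start codon, with the start codon in capitals, 5′ to 3′ on the strand given, from GENCODE 29 transcripts on GRCh38; coordinates are those of the start codon. The annotated transcript may not be the one these cells use. The 5 members with the highest MRL were as follows.
SEC23B: ttttagactATGg
STX18: cgggtcgctATGg
ARCN1: gccctcaccATGg
SEC23A: aactccacaATGa
SEC13: gccgcaatcATGg
The start codons lie at chr20:18510836-18510838 (plus strand) for SEC23B, chr4:4541962-4541964 (minus) for STX18, chr11:118572548-118572550 (plus) for ARCN1, chr14:39096116-39096118 (minus) for SEC23A and chr3:10321050-10321052 (minus) for SEC13. The 5 lowest in MRL of the 48 members kept were as follows.
VAMP4: gtaaaaaatATGc
BET1L: cagggcacgATGg
VAMP2: gcccccgccATGt
VAMP8: ctctgagacATGg
STX16: gggtgagacATGg
These start codons lie at chr1:171738412-171738414 (minus) for VAMP4, chr11:207319-207321 (minus) for BET1L, chr17:8162877-8162879 (minus) for VAMP2, chr2:85577647-85577649 (plus) for VAMP8 and chr20:58652007-58652009 (plus) for STX16. The context counted as strong was A or G at the third base before the start codon together with G right after it. It was present in SEC23B, STX18, ARCN1 and SEC13 and also in BET1L, VAMP8 and STX16, so it did not separate the ends of the range.

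Over the 48 members kept, 19 had the strong context, or 39.6%, against 45.7% of 12346 genes with a window. Members with it had a median MRL of 3.51 and the others 3.37, against 3.23 and 3.20 over all genes. An ATG triplet in the 5′ leader was present in 23 members, or 47.9%, against 50.8% of 12715 genes. Members with such a triplet had a median MRL of 3.39 and those without 3.47, against 3.12 and 3.31 over all genes. In the SAR1 pair the gene of higher load has more ATG triplets in its leader: the SAR1A leader of 358 nt holds 9 of them and the SAR1B leader of 279 nt holds 1. Their windows follow.
SAR1A: gcattaataATGt
SAR1B: gatttggatATGt
The start codons lie at chr10:70161913-70161915 (minus) for SAR1A and chr5:134624017-134624019 (minus) for SAR1B, and neither has the strong context.

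Other pairs of subunits were compared within each gradient, where 3 gradients allow no exact p under 0.25. The β′ and β subunits are not close paralogs, and COPB2 was above COPB1 in 3 of 3 gradients, by 0.62 ± 0.37 MRL units (SD). COPG1 was above COPG2 in 3 of 3, by 0.45 ± 0.31. SEC24D was above SEC24C in 3 of 3, by 0.38 ± 0.13, and BET1 was above BET1L in 3 of 3, by 0.24 ± 0.16. SEC23B and SEC23A (0.20 ± 0.45) and SEC24A and SEC24B (0.08 ± 0.38) did not differ beyond their spread, with the first of each pair higher in 2 of 3 gradients. The SAR1 and syntaxin pairs described above had the widest gaps of the 11 pairs compared.

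The authors' deposited table sorts genes into strict classes named for a fraction, or leaves them unassigned or mixed. The leading fraction alone does not set the class: NAPA, with 53.3% in heavy polysomes, is unassigned or mixed. Of the 49 members, 10 are classed as heavy polysome (COPG1, ARCN1, SEC13, SEC23A, SEC23B, SEC24D, TRAPPC4, TRAPPC9, STX18 and NSF), 5 as light polysome (TRAPPC6B, BET1, VAMP4, VAMP7 and YKT6) and 3 as monosome (SAR1B, STX16 and VAMP8) in the authors' deposited table. The other 31 are unassigned or mixed. In the same table from the authors, 12.1% of all genes are classed as heavy polysome, 3.67% as light polysome and 11.3% as monosome.

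The wider trafficking machinery was described from 11 further lists, 119 genes kept, chosen by function. Their median MRL was 3.44 ± 0.01, and 30 were higher and 19 lower than the median gene (limma), or 25.2% and 16.0%. Of 15 other SNAREs kept, 0 were higher by limma, also at an unadjusted p under 0.05, and 6 were lower, with a median of 2.78 ± 0.23, between 3.57 ± 0.31 for the Golgi SNARE VTI1A and 1.63 ± 0.33 for its paralog VTI1B. SM proteins guide SNARE assembly. Among 10 SM proteins and other SNAPs, 4 were higher and 1 lower, with the Munc18 protein STXBP2 at 4.30 ± 0.40 and the α-SNAP paralog NAPB at 1.62 ± 0.10. ARF GTPases recruit the COPI coat, and in their list of 12, which also holds the second ζ-COP gene COPZ2, 6 were higher and 1 lower, from ARF1 at 4.48 ± 0.69 to COPZ2 at 1.85 ± 0.29.

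Among 5 other COPII and ER exit site genes TFG was highest at 4.17 ± 0.45 and SEC31B, the paralog of SEC31A, lowest at 1.78 ± 0.29. Of 6 further TRAPP subunits TRAPPC12 was highest at 4.36 ± 0.15 and TRAPPC2 lowest at 2.03 ± 0.15. Tethering complexes had 3 higher and 1 lower of 8 COG subunits (COG6 at 4.17 ± 0.13, COG8 at 2.03 ± 0.43), and 4 higher and 1 lower of 9 exocyst subunits (EXOC4 at 4.15 ± 0.50, EXOC8 at 1.40 ± 0.11). Of 3 NRZ tether genes 1 was higher. Golgins and stacking proteins had 2 higher and 1 lower of 13, with GORASP2 at 4.36 ± 0.41 and GOLGA1 at 2.48 ± 0.41. Clathrin and AP adaptors had 4 higher and 3 lower of 18, with AP1M1 at 4.66 ± 0.29 and AP3S2 at 2.38 ± 0.15. Cargo receptors had 4 higher and 2 lower of 20, with TMED9 at 4.48 ± 0.51 and ERGIC2 at 2.33 ± 0.14.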

How the data were processed

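Polysome fractions of DMSO-treated HEK293 cells were analysed in 9 libraries, sequenced as 75 nt single-end reads per the labels. The submitters' processing notes name featureCounts and GRCh38. Which aligner made the alignments, how featureCounts was set and whether strand was used is not given in the sources used here. Signal as deposited for a library is its gene counts scaled by a single size factor: whole reads were recovered for 100% of values at a tolerance of 0.01. The deposited percent is a gene's share over the 3 fractions of a gradient. The authors' deposited mean ribosome load is a score, recomputed from those percentages with weights of 1, 2.5 and 6. The deposited strict class of a gene is a label and was only copied.

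Genes were kept when their recovered reads averaged 10 or more and were above 0 in each gradient (12720 of 13661). limma 3.58.1 (R 4.3.3, trend, two-sided, Benjamini-Hochberg over all genes kept, threshold 0.05) tested log2 mean ribosome load minus the median gene of the gradient (n = 3), and log2(normalized count + 1) between fractions in 1 fit of 9 libraries. Fold changes on that scale understate those of low genes. Scripts were tested on simulated data. Count tests on recovered reads (edgeR 4.0.16 quasi-likelihood, DESeq2 1.42.0), TMM scaling, other pseudocounts, filters and weights, a replicate block and omission of gradients or of light polysome library 2 served as alternatives. The labels give a batch number to each library, and the pairing of fractions rests on it alone: deviations from fraction means correlated at r = -0.54 to 0.39 between libraries of the same number and at -0.45 to 0.39 between libraries of different numbers. Coding lengths, leaders and loci came from GENCODE 29, where 13658 identifiers matched and 12715 kept genes had a coding model. Spread over replicates measures differences between the samples as labelled, and the precision of low genes is set by their reads.

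The members and gene lists were chosen with earlier results of these data known. All 49 members are reported. Values per gradient or library are given for the highest and lowest of each family, for paired subunits and for members past a threshold in the load test or in heavy polysomes against monosomes; of the other lists with 5 or more genes kept, the highest and lowest are named. TRAPPC6B, STX6, VAMP7 and YKT6 have library values because they passed in light polysomes against monosomes, which was decided after their values were seen.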

Additional observations from a re-analysis of the deposited data

How the results depend on the processing

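No call of a member reversed its direction under any alternative tried. Across omissions of 1 gradient, members above the median gene in ribosome load numbered 7 to 16 and those below 6 to 10; members higher in heavy polysomes than monosomes 5 to 16 and lower 5 to 10; higher in light polysomes than monosomes 0 to 12 and lower 0 to 6; and higher in heavy than light polysomes 0 to 18 and lower 0 to 15. Without light polysome library 2 alone, 15 members were higher in heavy than light polysomes, against 24.7% of all genes. With the share in polysomes in place of the load, 1 member was below the median gene and 10 were above it. With weights of 1, 2 and 3 there were 7 below and 12 above. The share in polysomes does not separate light from heavy polysomes. Fitting only the 2 fractions compared, with fewer samples in the fit, gave 3 higher and 1 lower in light polysomes over monosomes. The shares of all genes were 5.64% and 8.05%. With the replicate block there were 12 higher and 8 lower in heavy polysomes over monosomes, against 24.8% and 24.5% of all genes. In light polysomes over monosomes there were 5 and 2, against 8.40% and 10.7%. In heavy over light polysomes there were 8 and 11, against 15.5% and 18.3%. Beyond the members named with it in the results, the paired fit changed no call. Under TMM scaling the medians of families with 5 or more genes kept moved by less than their spread between gradients. Omission of 1 of 3 gradients cannot move a mean by more than that SD, so it is no check on the medians. The COPI median was 3.47, 4.06 and 3.32 in gradients 1, 2 and 3, and the COPII median 3.51, 3.85 and 3.34. For the 44 calls between fractions, DESeq2 kept 44, edgeR 40 and a pseudocount of 5 all 44. Reads limit TRAPPC5, which was not tested, and TRAPPC9; the same 3 gradients underlie every comparison.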
